A study of Homo sapiens with 4 samples.

Results

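Transcripts of the transforming growth factor beta (TGF-β) pathway were followed in microglia-like cells made from H9 cells. H9 is an established line of human embryonic stem cells. The 10 genes described were chosen by symbol from both gene matrices: the ligand TGFB1, the receptors TGFBR1 and TGFBR2, SMAD3, the inhibitors SMAD7, SKIL and PMEPA1, and the response genes TGFBI, ID1 and ID3. They are 10 of 36601 genes in the files and of 15066 tested, and all 10 passed the filter on low counts. Their values were not used to choose them by a threshold, but the choice was made with earlier results of these data known.

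In all 4 conditions, H9-derived monocyte-like precursors collected on day 25 had been kept for 7 days in a medium with TGF-β, IL-34 and cholesterol, so the control cells had TGF-β as well. All cultures were collected with Accutase and 5 µM actinomycin D, an inhibitor of transcription. SemaLPS cultures had 2 µM semagacestat, an inhibitor of γ-secretase, for 22 h and 200 ng/mL lipopolysaccharide (LPS), a bacterial cell wall component that activates Toll-like receptor signalling, for the last 6 h. LPS cultures had LPS with the solvent of semagacestat, Sema cultures had semagacestat with the solvent of LPS, and Ctrl cultures had both solvents (DMSO and PBS). Each condition had 3 cultures. All cells come from 1 stem cell line, and nothing in the labels says whether cultures of a condition came from separate differentiations, so a p-value here reflects only how these cultures vary, which may be technical.

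TGF-β is secreted in a latent complex, is released by integrins and proteases, and binds a pair of receptor kinases, TGFBR2 and TGFBR1, which phosphorylate SMAD2 and SMAD3. Bone morphogenetic proteins (BMPs), ligands of the same family, act through related receptors on SMAD1 and SMAD5, and the ID genes are their best known targets. In the mouse brain, TGF-β is needed for microglia to hold their resting expression programme.

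After quality filters 14933 cells were kept, 1062 to 1651 per culture, with 30302342 to 51286977 UMIs (counted RNA molecules) per culture; the median cell had 27355 to 31410. The summed level of 11 microglia and macrophage markers was 5881 to 6223 counts per 1e6 UMIs (CPM) in SemaLPS, 5695 to 6016 in LPS, 6445 to 6726 in Sema and 6254 to 6543 in Ctrl cultures; P2RY12 and TMEM119 were low (3.57 to 36.7 and 1.06 to 2.68 CPM). Markers of megakaryocytes or platelets, a rich source of TGFB1, summed to at most 0.196 CPM in any culture. Endothelial markers, mostly VWF, summed to 0.315 to 0.537 CPM in LPS and 1.17 to 1.88 CPM in Ctrl cultures, and to 0.234 to 0.403 CPM in SemaLPS and 0.832 to 0.919 CPM in Sema cultures. Neural markers, mostly TUBB3, summed to 5.28 to 6.25 CPM in LPS and 8.05 to 12.8 CPM in Ctrl cultures, and to 3.35 to 7.98 CPM in SemaLPS and 8.26 to 10.6 CPM in Sema cultures. Markers of pluripotent cells summed to 0.586 to 0.916 CPM in LPS and 0.22 to 0.396 CPM in Ctrl cultures. These 3 sums moved with LPS. The sum of the microglia and macrophage markers was lower with LPS too, with no overlap in either comparison. Markers of T or NK cells, mostly NKG7, summed to 18.17 to 25.01 CPM over all cultures. The part of all these sums in the results was not tested. Fibroblast markers summed to 2.59 to 6.77 CPM in 11 cultures and to 30.0 CPM in Ctrl-2. Without Ctrl-2, the same 9 of 10 calls between LPS and Ctrl given below were made. The 8 markers of dividing cells summed to 209.5 to 302.5 CPM in LPS and 282.3 to 564.1 CPM in Ctrl cultures, and to 253.6 to 426.9 CPM in SemaLPS and 397.5 to 526.9 CPM in Sema cultures. The share of cells left out for over 10% mitochondrial UMIs was 22.65 to 32.08% in SemaLPS, 20.32 to 31.73% in LPS, 26.71 to 37.53% in Sema and 31.13 to 39.08% in Ctrl cultures; with a limit of 20% the members called with LPS were the same 9 in both comparisons. Levels below are CPM of UMIs summed per culture, after scaling by the trimmed mean of M values (TMM), and cannot tell fewer expressing cells from less RNA per cell. Fold changes and adjusted p-values come from the quasi-likelihood test of edgeR, adjusted after Benjamini and Hochberg over all 15066 genes, and a gene is said to have risen or fallen at an adjusted p under 0.05.

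With LPS, 8 of the 10 genes fell and SKIL rose, both in the absence and in the presence of semagacestat. Against this stands a response that reached most of the transcriptome. For LPS against Ctrl, 59.3% of all genes tested passed (30.3% rose and 29% fell), and for SemaLPS against Sema 61.2% passed (31% rose and 30.3% fell). The 9 of 10 calls in each comparison are to be read against those shares. The median log2 fold change of the 10 genes was −0.86 for LPS against Ctrl, beside −0.02 over all genes, and −0.82 for SemaLPS against Sema, beside −0.02. With semagacestat none of the 10 passed in this fit, with or without LPS. With the culture number as a block, PMEPA1 fell for SemaLPS against LPS (edgeR adjusted p = 0.0409), where 2.09% of all genes passed. That call was lost in some fits that left out 1 culture.

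**Figure D1:**
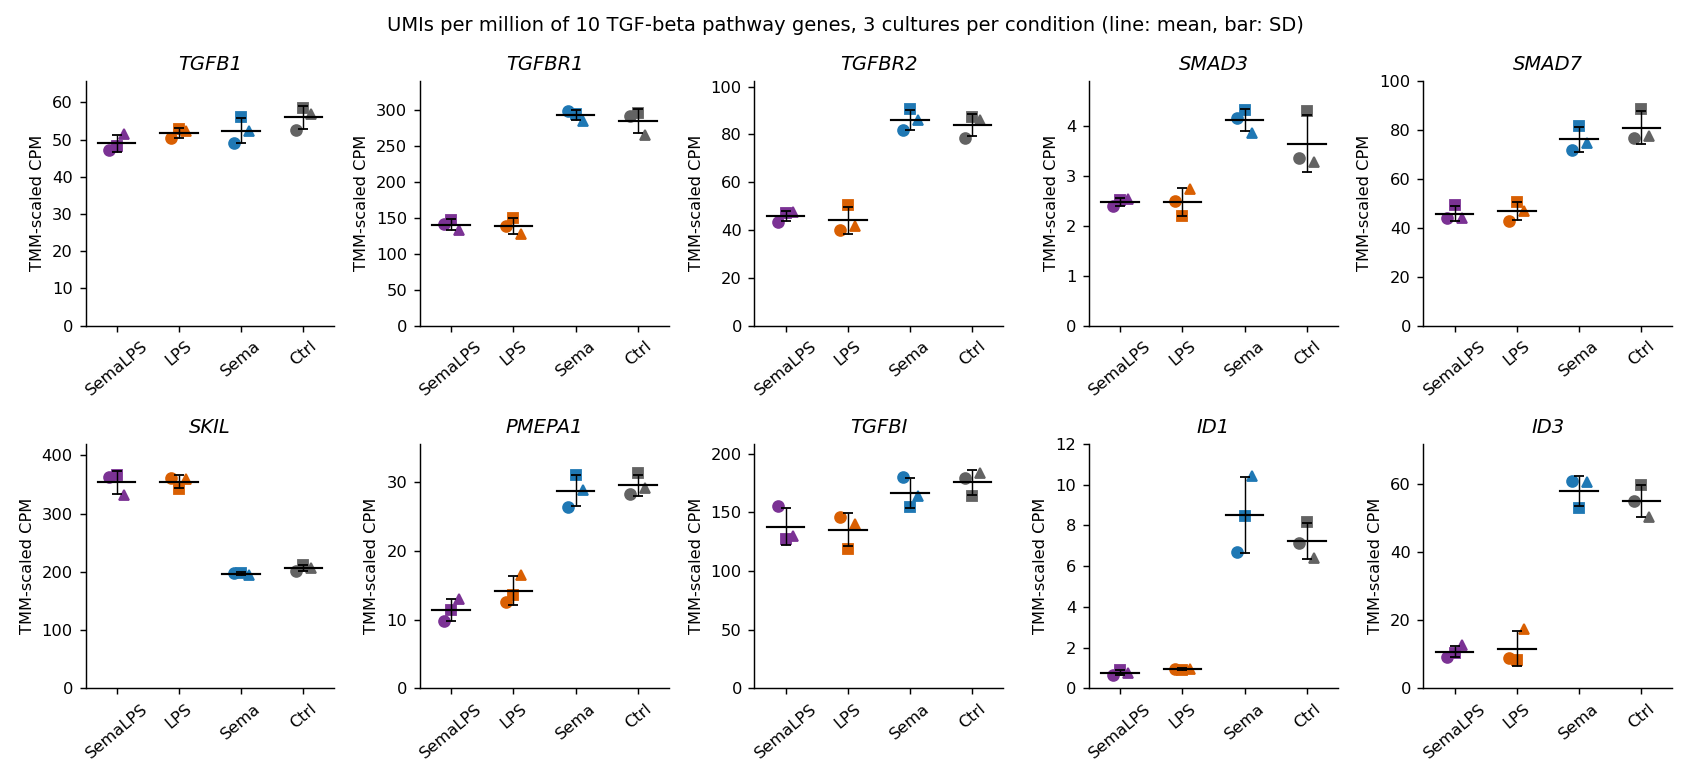
TMM-scaled CPM (vertical axes, linear, from 0) of the 10 genes in SemaLPS, LPS, Sema and Ctrl cultures. Symbols are cultures, with circles for number 1, squares for number 2 and triangles for number 3; lines are means and bars SD over 3 cultures. The 6 cultures with LPS lie apart from the 6 without it for TGFBR1, TGFBR2, SMAD3, SMAD7, SKIL, PMEPA1, ID1 and ID3, and overlap with them for TGFB1 and TGFBI. Such overlap was not counted over all genes.

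TGFB1 (chr19:41301587-41353911, minus strand, GRCh38), which encodes the ligand TGF-β1, differed least. Its level was 50.4, 52.9 and 52.4 CPM in LPS cultures, against 52.5, 58.6 and 56.9 CPM in Ctrl cultures. It was 47.3, 48.2 and 51.5 CPM in SemaLPS cultures, against 49.1, 56.0 and 52.3 CPM in Sema cultures. The groups overlapped in both comparisons, and the log2 fold changes were −0.11 (SE 0.06, adjusted p = 0.105) and −0.10 (SE 0.06, adjusted p = 0.142). With the culture number as a block, TGFB1 passed the threshold in both, at adjusted p = 0.0193 and 0.0306 with log2 fold changes of −0.11 and −0.10, in a fit that called 65.3% of all genes for LPS against Ctrl (33% higher, 32.3% lower) and 67.8% for SemaLPS against Sema (33.7% higher, 34% lower). These blocked calls were lost without Ctrl-2 (adjusted p = 0.0737), LPS-2 (0.0759) or LPS-3 (0.0666) for LPS against Ctrl, and without Sema-2 (0.149) or SemaLPS-2 (0.294) for SemaLPS against Sema.

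Both receptor genes fell. TGFBR1 (chr9:99104038-99154192, plus strand), the type I receptor kinase that phosphorylates SMAD2 and SMAD3, had 139.4, 150.1 and 128.2 CPM in LPS cultures, against 292.4, 296.0 and 266.1 CPM in Ctrl cultures. Every LPS culture lay below every Ctrl culture, and the LPS mean was 48.9% of the Ctrl mean. In SemaLPS cultures TGFBR1 had 142.2, 146.9 and 132.6 CPM, against 299.5, 295.3 and 285.6 CPM in Sema cultures. The log2 fold changes were −1.03 (SE 0.06, adjusted p = 4.57e-09) and −1.06 (SE 0.06, adjusted p = 3.09e-09).

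TGFBR2 (chr3:30606502-30694142, plus strand) encodes the type II receptor, which binds the ligand first and activates TGFBR1. Its level was 39.9, 50.4 and 41.7 CPM in LPS cultures, against 78.4, 87.1 and 86.2 CPM in Ctrl cultures. It was 43.5, 47.1 and 47.3 CPM in SemaLPS cultures, against 81.9, 90.4 and 86.0 CPM in Sema cultures. The groups did not overlap, and TGFBR2 fell, with log2 fold changes of −0.93 (SE 0.08, adjusted p = 1.75e-07) and −0.90 (SE 0.08, adjusted p = 1.97e-07).

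SMAD3 (chr15:67063763-67195195, plus strand), a transcription factor that the receptors activate, was counted sparsely, with 75 to 197 UMIs per culture. It had 2.50, 2.19 and 2.74 CPM in LPS cultures, against 3.36, 4.30 and 3.27 CPM in Ctrl cultures, and fell by 0.55 (SE 0.13, adjusted p = 0.0018) on the log2 scale. It had 2.39, 2.51 and 2.53 CPM in SemaLPS cultures, against 4.17, 4.32 and 3.87 CPM in Sema cultures, and fell by 0.73 (SE 0.12, adjusted p = 0.000131). All cultures with LPS were below all cultures without it. From library 1 alone, the log2 fold change for LPS against Ctrl was −0.45 and did not pass (adjusted p = 0.065), while library 2 alone gave −0.67 (adjusted p = 0.00278). SMAD3, TGFB1 and PMEPA1 each overlap genes on the opposite strand (the RNAs AC087482.1 and AC012568.1 for SMAD3; HNRNPUL1, CCDC97 and TMEM91 for TGFB1; NKILA for PMEPA1), and whether counting used the strand is not stated, so their values may hold reads of those genes.

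Among inhibitors of the pathway, SMAD7 and PMEPA1 fell while SKIL rose. SMAD7 (chr18:48919853-48952052, minus strand) blocks the type I receptor and is itself switched on by TGF-β. It had 43.0, 50.7 and 46.9 CPM in LPS cultures, against 76.5, 88.6 and 77.4 CPM in Ctrl cultures, and 44.0, 49.4 and 44.0 CPM in SemaLPS cultures, against 72.0, 81.7 and 74.9 CPM in Sema cultures. The groups did not overlap, and SMAD7 fell, with log2 fold changes of −0.79 (SE 0.08, adjusted p = 7.96e-07) and −0.73 (SE 0.07, adjusted p = 1.43e-06).

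PMEPA1 (chr20:57648392-57711536, minus strand), whose protein binds receptor-activated SMADs in a negative feedback loop, had 12.5, 13.6 and 16.5 CPM in LPS cultures, against 28.3, 31.3 and 29.1 CPM in Ctrl cultures. It had 9.76, 11.3 and 12.97 CPM in SemaLPS cultures, against 26.4, 31.0 and 28.9 CPM in Sema cultures. Neither pair of groups overlapped, and PMEPA1 fell, with log2 fold changes of −1.06 (SE 0.11, adjusted p = 1.43e-06) and −1.34 (SE 0.11, adjusted p = 1.28e-07).

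SKIL (chr3:170357678-170396835, plus strand) encodes SnoN, a corepressor that holds SMAD complexes inactive on target genes and is degraded when the pathway is active. Its level was 361.5, 342.4 and 360.2 CPM in LPS cultures, against 202.0, 212.4 and 206.3 CPM in Ctrl cultures. It was 363.5, 365.8 and 331.3 CPM in SemaLPS cultures, against 198.2, 198.1 and 194.6 CPM in Sema cultures. Each culture with LPS was above each culture without, and SKIL rose by 0.78 (SE 0.04, adjusted p = 2.18e-09) and by 0.84 (SE 0.04, adjusted p = 8.65e-10) on the log2 scale. SKI, the closest relative of SKIL and also a SMAD corepressor, moved the other way. It had 16.9, 20.6 and 18.8 CPM in LPS cultures, against 46.8, 47.8 and 46.9 CPM in Ctrl cultures, and fell by 1.33 (SE 0.07, adjusted p = 8.72e-10). The directions of both were kept with DESeq2's size factors in place of TMM, a scaling that moved the median fold change of all genes by 0.001 in size between LPS and Ctrl. A shift of that size could not turn either direction, so it is no test of the scaling.

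Of the response genes, TGFBI fell least and ID1 and ID3 fell most. TGFBI (chr5:136028895-136063818, plus strand) encodes a secreted matrix protein induced by TGF-β and abundant in macrophages. It had 145.9, 119.2 and 140.4 CPM in LPS cultures, against 179.4, 164.0 and 184.1 CPM in Ctrl cultures, with no overlap, and fell by 0.38 (SE 0.09, adjusted p = 0.00214) on the log2 scale. In SemaLPS cultures it had 155.8, 127.3 and 130.1 CPM, against 180.0, 154.6 and 164.3 CPM in Sema cultures; these groups overlapped, and it fell by 0.27 (SE 0.09, adjusted p = 0.0159). That call was lost without Sema-1 (adjusted p = 0.071), SemaLPS-2 (0.0777) or SemaLPS-3 (0.064), and with the culture number as a block it held in each of these fits.

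ID1 (chr20:31605283-31606515, plus strand) and ID3 (chr1:23557918-23559794, minus strand) encode small helix-loop-helix proteins that bind other transcription factors of that class and keep them off DNA. ID1 had 0.97, 0.88 and 0.96 CPM in LPS cultures, against 7.14, 8.17 and 6.40 CPM in Ctrl cultures. It had 0.65, 0.90 and 0.74 CPM in SemaLPS cultures, against 6.67, 8.44 and 10.4 CPM in Sema cultures. The groups lay far apart, and ID1 fell, with log2 fold changes of −2.95 (SE 0.19, adjusted p = 1.49e-08) and −3.47 (SE 0.19, adjusted p = 2.36e-09). Cultures with LPS held 24 to 43 ID1 UMIs each. The LPS mean was 12.9% of the Ctrl mean.

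ID3 had 8.87, 8.38 and 17.5 CPM in LPS cultures, against 54.8, 59.5 and 50.2 CPM in Ctrl cultures. It had 9.28, 10.4 and 12.6 CPM in SemaLPS cultures, against 60.6, 52.8 and 60.4 CPM in Sema cultures. LPS-3 was higher than the other LPS cultures but still far below every Ctrl culture. ID3 fell, with log2 fold changes of −2.23 (SE 0.20, adjusted p = 4.99e-07) and −2.43 (SE 0.20, adjusted p = 1.9e-07), and without LPS-3 the value for LPS against Ctrl was −2.66. The LPS mean was 21.1% of the Ctrl mean.

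RNA released from other cells of the pool can add to such low values. In Ctrl cells, genes that LPS induces strongly had 1.31% (CCL8), 1.33% (TNIP3), 1.91% (TNFAIP6), 2.17% (CCL20) and 2.59% (IL6) of their level in LPS cells. ID1 and ID3 had 12.9% and 21.1% of their Ctrl level in LPS cells. Free RNA and a cell's own expression cannot be told apart in these values. The part of free RNA in the ID1 and ID3 levels was not tested. Cells with 2 or more UMIs of the 8 dividing-cell markers made up 6301 of the 14933 cells kept. When these cells were left out, the log2 fold change for LPS against Ctrl was −2.81 for ID1 and −2.24 for ID3. The other calls between LPS and Ctrl held as well, and TGFB1 then passed, at −0.18 (adjusted p = 0.0112).

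**Figure D2:**
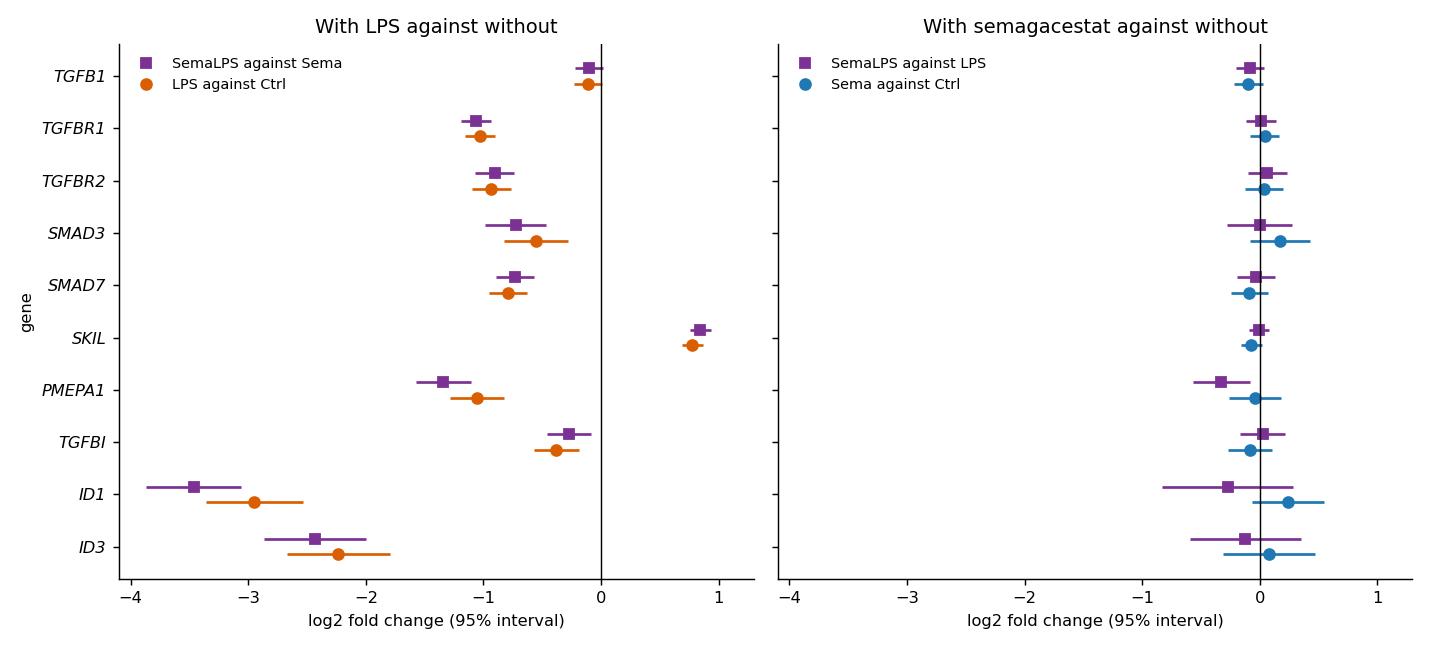
Log2 fold changes (horizontal axes) of the 10 genes with 95% intervals, from the fit without a block. Left, with LPS against without it, in the presence (squares) and absence (circles) of semagacestat; right, with semagacestat against without it, in the presence (squares) and absence (circles) of LPS. ID1 and ID3 lie farthest to the left with LPS, SKIL is the only gene on the right, and with semagacestat all intervals but that of PMEPA1 in LPS-treated cells include 0.

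Upstream sequences of ID1, which fell most, and of SKIL, the only gene that rose, are shown here for the SMAD-binding motif. They come from the RefSeq (GRCh38.p14) windows of 250 bases before each start site. The RefSeq and GENCODE starts of these genes differ, and bases past the GENCODE start (6 for ID1, 37 for SKIL) were cut, which left chr20:31605039-31605282 on the plus strand for ID1 and chr3:170357465-170357677 on the plus strand for SKIL, written 5′ to 3′. The RefSeq window of ID3 lies within the ID3 gene as GENCODE gives it and is not shown. Capitals mark CAGAC or its complement GTCTG, the short sequence that SMAD3 and SMAD4 bind.
ID1: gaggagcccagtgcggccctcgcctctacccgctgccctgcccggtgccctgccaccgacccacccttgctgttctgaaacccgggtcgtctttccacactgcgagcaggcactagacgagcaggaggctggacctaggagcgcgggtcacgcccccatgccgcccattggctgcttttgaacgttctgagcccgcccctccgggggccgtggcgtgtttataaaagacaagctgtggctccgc
SKIL: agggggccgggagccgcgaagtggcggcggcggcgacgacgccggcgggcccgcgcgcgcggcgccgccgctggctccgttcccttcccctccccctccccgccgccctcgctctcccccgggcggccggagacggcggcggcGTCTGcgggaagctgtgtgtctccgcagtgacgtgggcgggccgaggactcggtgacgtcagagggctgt
In the whole windows of 250 bases, ID3 and SKIL held 1 match each and ID1 none. CAGAC on either strand was present in 38% of 34943 RefSeq promoter windows of this length, and in 12 of 27 windows of the 10 genes (6 genes). The longer palindrome GTCTAGAC was in 0.2% of all windows and in 0 of the 27. GGCGCC, a GC-rich motif that SMADs also bind, was in 16.4% of all windows and in 5 of the 27, 1 of them at SKIL. A match describes these letters only and is no evidence of binding, and the regulatory elements of these genes may lie outside the windows.

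With LPS, the mean share of cells with a UMI of each gene moved in the same direction as its summed level. Between Sema and Ctrl the directions differed for some genes, PMEPA1 and TGFBI among them. Cells were first thinned to 10000 UMIs each, which left out 141 of 4113 SemaLPS, 87 of 3648 LPS, 94 of 3970 Sema and 80 of 3202 Ctrl cells. TGFBR1 was found in 64.2% ± 3.7 of LPS cells and 88.5% ± 2.6 of Ctrl cells (SD over 3 cultures), and TGFBR2 in 31.1% ± 4.3 of LPS cells and 55.1% ± 2.3 of Ctrl cells. SMAD7 was in 31.7% ± 2.1 of LPS cells and 53.4% ± 3.2 of Ctrl cells, PMEPA1 in 11.4% ± 1.4 of LPS cells and 23.5% ± 1.5 of Ctrl cells, and SKIL in 91.4% ± 0.8 of LPS cells and 84.1% ± 1.5 of Ctrl cells. Most cells thus held a SKIL transcript in either condition.

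ID3 was found in 7.34% ± 1.6 of LPS cells and 31.3% ± 2.5 of Ctrl cells, and ID1 in 0.87% ± 0.24 of LPS cells and 5.64% ± 1.2 of Ctrl cells. The LPS-induced genes CCL8 and IL6 were found in 0.38 to 0.67% and 0.19 to 0.48% of Ctrl cells at the same depth, TNIP3 in 1.05 to 1.34%, TNFAIP6 in 3.59 to 4.29% and CCL20 in 4.89 to 5.82%. The share of LPS cells with ID1, 0.62 to 1.101% by culture, lies within the range of these genes. That with ID3, 6.27 to 9.17%, lies above the highest of them, CCL20. The levels of these genes differ from those of ID1 and ID3. How much of either share comes from free RNA was not tested. All 10 genes, TGFB1 included (37.7% ± 2.2 of LPS cells, 43.0% ± 0.8 of Ctrl cells), had shares that did not overlap between LPS and Ctrl cultures, and the same held for SemaLPS against Sema. An exact two-sided permutation test of 3 against 3 cultures gave p = 0.10 for each, the smallest it can give, or 0.182 after adjustment over 40 tests, so no share passed. How many of all genes have shares without overlap was not counted. By summed levels, 59.3% of all genes passed for LPS against Ctrl and 61.2% for SemaLPS against Sema. Without thinning, the mean shares in LPS and Ctrl cells were 70.5 and 73.3% for TGFB1, 89.4 and 97.2% for TGFBR1, 61.1 and 82.3% for TGFBR2, 6.67 and 9.84% for SMAD3, and 62.1 and 80.7% for SMAD7. They were 98.4 and 97.3% for SKIL, 27.4 and 47.9% for PMEPA1, 84.5 and 92.0% for TGFBI, 2.27 and 11.5% for ID1, and 15.4 and 50.4% for ID3, and TGFB1 then overlapped.

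**Figure D3:**
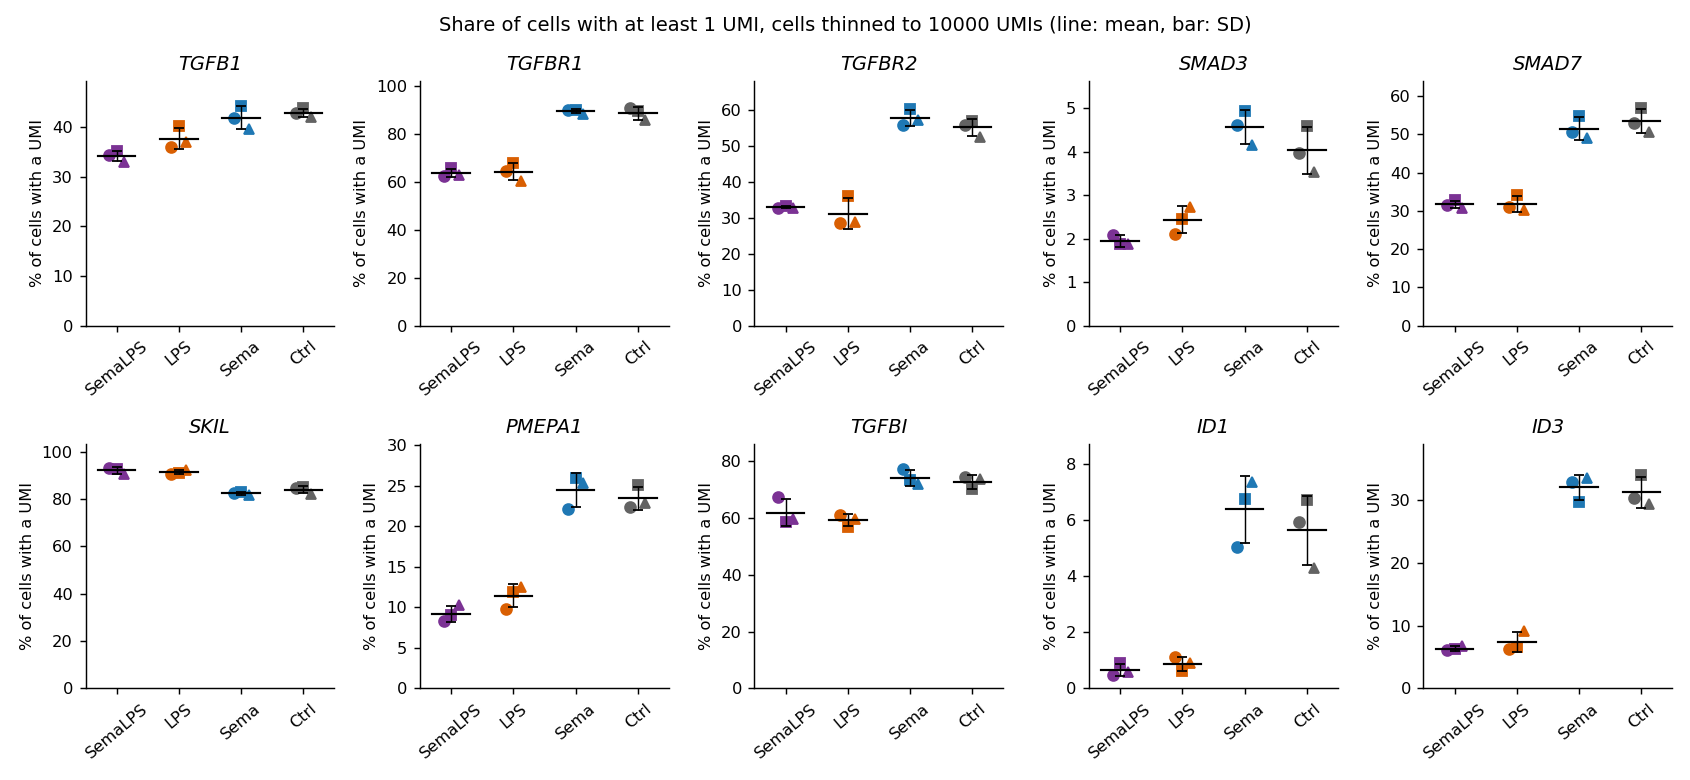
Percentage of cells with at least 1 UMI of each gene (vertical axes, from 0) after thinning every cell to 10000 UMIs. Symbols are cultures (circle 1, square 2, triangle 3), lines means and bars SD over 3 cultures; LPS lies below Ctrl, and SemaLPS below Sema, in all panels but SKIL, where they lie above. For TGFB1, LPS-2 at 40.2% is above Sema-3 at 39.7%.

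The genes differed in how their transcripts were spread over cells. Where every cell draws from 1 common level, the variance of UMIs over cells is close to the mean. In Ctrl cultures this ratio was 1.02 to 1.14 for SMAD3, 1.201 to 1.24 for TGFB1 and 1.21 to 1.31 for TGFBR2. It was 1.62 to 2.19 for ID1, 1.96 to 2.30 for TGFBR1, 1.99 to 2.69 for TGFBI and 2.33 to 2.86 for ID3, so ID1 and ID3 were uneven between cells although they are low on average. The ratio was 1.31 to 1.42 for PMEPA1.

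ID1 was found more often in cells with ID3 than in cells without it. In Sema cultures ID1 was detected in 10.9, 12.6 and 13.3% of cells with ID3, against 2.21, 4.29 and 4.33% of cells without it. In Ctrl cultures the shares were 11.2, 10.1 and 7.47% of cells with ID3, against 3.62, 4.94 and 2.97% of cells without. The share with ID3 was higher in each of these 6 cultures, at equal depth, and cells of a culture are not replicates, so no test is given. In LPS cultures 0 to 3 cells per culture had both, too few for a comparison.

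**Figure D4:**
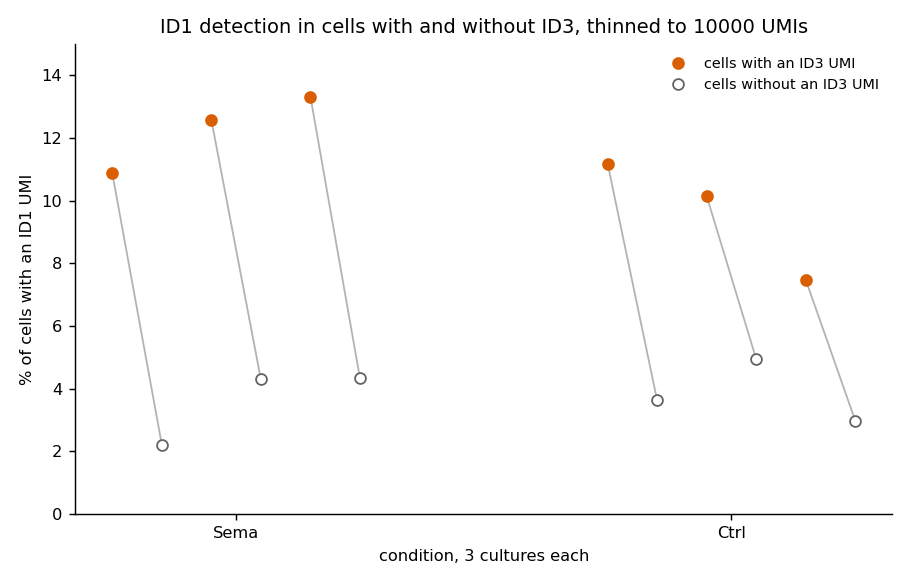
Percentage of cells with an ID1 UMI among cells with (filled) and without (open) an ID3 UMI, in 3 Sema and 3 Ctrl cultures, after thinning to 10000 UMIs; grey lines join the values of 1 culture. In all 6 cultures the filled point is above the open one, with 7.47 to 13.3% against 2.21 to 4.94%.

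With semagacestat alone, no member of the 10 passed. For Sema against Ctrl 0 of 10 passed with edgeR, 0 with DESeq2 and 0 with the culture number as a block. At an unadjusted p below 0.05 there were 0 with edgeR, 0 with DESeq2 and 2 with the block. The background was low too, at 0.0133% of genes called without and 3.43% with the block. The log2 difference and its 95% interval were 0.04 (−0.08 to 0.17) for TGFBR1, 0.04 (−0.12 to 0.20) for TGFBR2, −0.09 (−0.24 to 0.07) for SMAD7, −0.07 (−0.16 to 0.02) for SKIL and −0.04 (−0.26 to 0.18) for PMEPA1. For TGFB1 it was −0.095 (−0.21 to 0.02), for TGFBI −0.08 (−0.27 to 0.11), for SMAD3 0.17 (−0.08 to 0.43), for ID3 0.08 (−0.31 to 0.47) and for ID1 0.24 (−0.06 to 0.55). These intervals do not show that the drug had no effect on a gene, and they are widest for ID1, ID3 and SMAD3.

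In cells with LPS, PMEPA1 was the gene that differed most with semagacestat. It was lower in SemaLPS than in the LPS culture of the same number in 3 of 3 pairs, while the groups overlapped. The log2 difference was −0.32 (95% interval −0.57 to −0.08, adjusted p = 0.836), and with the culture number as a block PMEPA1 fell by 0.33 (adjusted p = 0.0409). The block called 2.09% of all genes (1.41% higher, 0.677% lower), against 0.0133% without it. The blocked call was lost without LPS-3 (−0.23, adjusted p = 0.207), SemaLPS-2 (0.188), SemaLPS-1 (0.172), LPS-1 (0.0887), Ctrl-2 (0.0557) or Sema-1 (0.0511), and without LPS-3 the unblocked difference was −0.20. For the other 9 genes no call was made in either fit; without the block PMEPA1 alone had an unadjusted p below 0.05, none passed with DESeq2, and the differences lay between −0.27 for ID1 (95% interval −0.83 to 0.28) and 0.06 for TGFBR2 (−0.10 to 0.23).

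Whether semagacestat altered the response to LPS was tested as an interaction. No member of the 10 passed with edgeR, with DESeq2 or with the block. Of all genes, edgeR called 0% without and 0.0664% with the block, and DESeq2 called 1 gene. At an unadjusted p below 0.05 there were 0 of the 10 with edgeR, 0 with DESeq2 and 1 with the block. The largest estimates were −0.52 for ID1 (SE 0.29, adjusted p = 1.0) and −0.29 for PMEPA1 (SE 0.15, adjusted p = 1.0). With 1 culture left out they ranged from −0.67 to −0.34 for ID1 and from −0.39 to −0.16 for PMEPA1.

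The rest of the pathway was read from 5 lists that hold 66 further genes, 58 of them tested; TGFB3, LTBP1, ITGB6, BMP4, BMPR1B, SMAD9, CCN2 and SALL1 had too few counts. Between LPS and Ctrl, 14 of the 58 rose and 25 fell, beside 30.3% and 29% of all genes. Their median log2 fold change was −0.22, beside −0.02. The counts of each list below are to be read against the same shares.

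Ligands and activating proteins moved in both directions: with TGFB1, 6 of 15 tested rose, 4 fell and 5 did not pass. ITGB8, an integrin subunit that with ITGAV releases active TGF-β from its latent complex, had 15.5 CPM in LPS and 0.884 CPM in Ctrl cultures on average and rose by 4.13 (SE 0.25, adjusted p = 7.87e-09) on the log2 scale. ITGAV rose by 0.34 (SE 0.04, adjusted p = 1.48e-05), to 194.3 CPM in LPS, against 153.6 CPM in Ctrl cultures. THBS1, a matrix protein that can activate latent TGF-β, averaged 6.98 CPM in LPS and 0.444 CPM in Ctrl cultures and rose by 3.97 (SE 0.43, adjusted p = 2.53e-06). INHBA, the subunit of activin A, a ligand that also signals to SMAD2 and SMAD3, averaged 13.1 CPM in LPS and 1.03 CPM in Ctrl cultures and rose by 3.67 (SE 0.37, adjusted p = 1.33e-06).

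Of 11 receptors tested, TGFBR1 and TGFBR2 included, 2 rose, 6 fell and 3 did not pass. ACVR2A, a type II receptor for activins, rose by 1.51 (SE 0.09, adjusted p = 6.19e-09), with 21.9 CPM in LPS and 7.68 CPM in Ctrl cultures. The other that rose was TGFBR3, a co-receptor for TGF-β (adjusted p = 0.00373), with 0.748 CPM in LPS and 0.262 CPM in Ctrl cultures. ENG, also a co-receptor, had a log2 fold change of −0.56, BMPR2, the type II receptor for BMPs, of −0.55, and ACVR1, a type I receptor for BMPs, of −0.39, and all 3 fell.

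Among 17 tested SMADs and regulators, 3 rose, 8 fell and 6 did not pass. SKIL is included among those that rose, and SMAD3 and SMAD7 among those that fell. Besides SKI, SMAD6, an inhibitor of BMP signalling and a BMP target, fell by 1.62 (SE 0.12, adjusted p = 8.91e-08), with 3.05 CPM in LPS and 9.36 CPM in Ctrl cultures. SMAD5, which BMP receptors activate, and the ubiquitin ligase gene SMURF1 fell, with log2 fold changes of −0.42 and −0.27. SMAD2 rose by 0.13 (adjusted p = 0.0284), and SMAD4, the shared partner of all receptor-activated SMADs, gave −0.10 and did not pass (adjusted p = 0.111).

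Of 14 response genes tested, 4 rose, 7 fell and 3 did not pass. PMEPA1, TGFBI, ID1 and ID3 are included here, among those that fell. ID2, like ID1 and ID3 a BMP target, fell, with a log2 fold change of −1.246 (SE 0.07, adjusted p = 4.7e-09), with 181.8 CPM in LPS and 431.1 CPM in Ctrl cultures. JUNB, a transcription factor that TGF-β and LPS can both induce, rose by 1.01, and the cell cycle inhibitors CDKN2B and CDKN1A rose by 2.22 and 0.39. ID4, another ID gene, passed as higher with 16 to 39 UMIs per LPS culture and 0 to 1 per Ctrl culture. The list thus did not move in 1 direction.

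Among 11 tested microglial genes that depend on TGF-β in mice, 8 fell, none rose and 3 did not pass, and their median log2 fold change was −1.302. Of all genes 29% fell, and the median over all genes was −0.016. GPR34, a lysophospholipid receptor, had 45.4 CPM in LPS and 268.6 CPM in Ctrl cultures and fell by 2.56 (SE 0.06, adjusted p = 8.16e-13). P2RY12, a purine receptor, the phagocytosis receptor MERTK and the transporter SLCO2B1 fell, with log2 fold changes of −2.63, −2.17 and −1.302. GAS6, PROS1 and TMEM119 did not pass. P2RY12, CX3CR1 and TMEM119 are microglia markers too, and the list was chosen with earlier results of these data known.

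**Figure D5:**
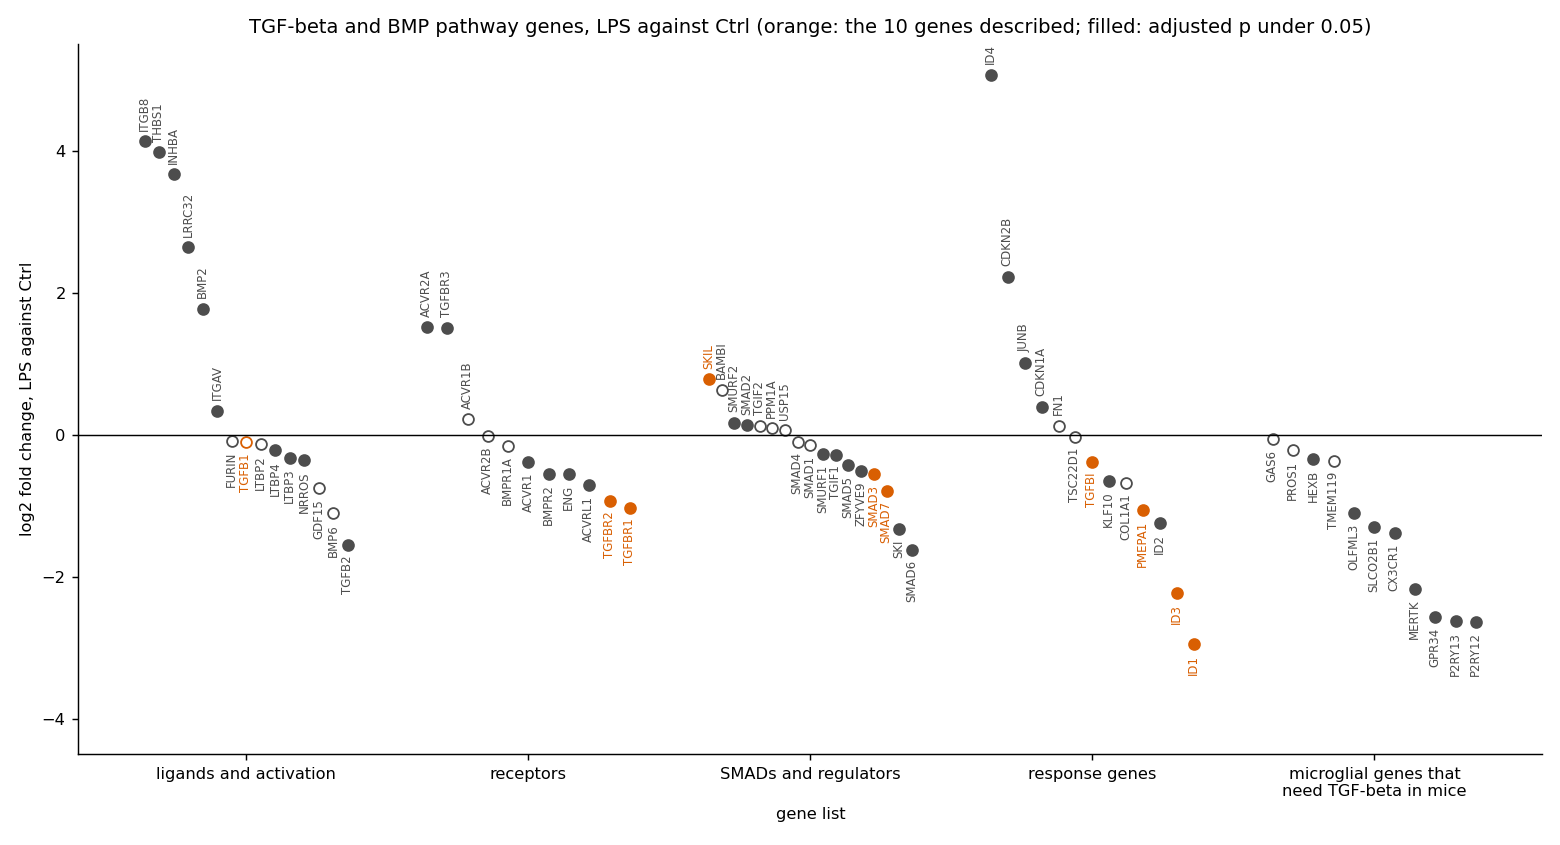
Log2 fold change of LPS against Ctrl (vertical axis) for the tested genes of 5 lists, sorted within a list, with 1 gene not shown; orange marks the 10 genes described and grey the others, and filled points passed an adjusted p of 0.05. The highest point is ID4, with at most 1 UMI in a Ctrl culture; ITGB8 leads the ligand list at 4.13, and no microglial gene lies above 0.

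For SemaLPS against Sema, 16 of the same 58 genes rose and 26 fell, beside 31% and 30.3% of all genes. Log2 fold changes were 4.06 for ITGB8, 3.86 for INHBA, 4.55 for THBS1 and 1.49 for ACVR2A, all of which rose. They were −1.33 for SKI, −1.52 for SMAD6, −1.21 for ID2, −2.56 for GPR34 and −1.76 for TGFB2, a further TGF-β ligand, all of which fell. Of 11 microglial genes, 10 fell.

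For semagacestat alone, none of the 58 genes passed in the fit without a block, where 8 reached an unadjusted p below 0.05. None passed with DESeq2. With the culture number as a block, 5 rose and 2 fell, beside 1.86% and 1.57% of all genes. BMP6, a BMP ligand, had 0.30, 0.28 and 0.59 CPM in Sema cultures, against 0.87, 0.92 and 2.11 CPM in Ctrl cultures. The groups did not overlap, and BMP6 fell with the block, with a log2 fold change of −1.73 (SE 0.22, adjusted p = 0.00137), against −1.67 (adjusted p = 0.549) without it. This blocked call held in 12 of 12 fits that left out 1 culture, but rests on 10 to 30 UMIs per Sema and 29 to 71 per Ctrl culture. For SemaLPS against LPS, BMP6 was called in 0 of 12 such fits.

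The 5 that rose with the block were all of the microglial list. P2RY13, a purine receptor, had 29.04, 22.0 and 22.2 CPM in Sema cultures, against 19.8, 14.8 and 15.6 CPM in Ctrl cultures, and rose by 0.55 (adjusted p = 0.00375 with and 0.652 without the block). CX3CR1, the fractalkine receptor, rose by 0.33, P2RY12 by 0.32, GAS6, a ligand of MERTK, by 0.24 and OLFML3, a secreted protein of microglia, by 0.14. ENG fell by 0.13 (adjusted p = 0.0452). When 1 culture was left out, P2RY13 kept its call in 11 of 12 fits (not without Sema-3), GAS6 in 10 (not without Ctrl-3 or Sema-3), CX3CR1 in 9 (not without Sema-3, Ctrl-3 or Ctrl-2), P2RY12 in 9 (not without Sema-2, Ctrl-3 or Sema-3), OLFML3 in 8 (not without culture 2 or 3 of Ctrl or Sema) and ENG in 4. In LPS-treated cells the block called OLFML3, up by 0.23 (adjusted p = 0.0036), and GAS6, up by 0.19 (adjusted p = 0.0377), beside 1.41% of all genes called higher; OLFML3 held in 12 of 12 such fits and GAS6 in 5.

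The genes whose profile over the 12 cultures was most like that of a member were found from the root mean square distance between centred log2 values of CPM plus 0.5, among genes of at least 20 CPM. SKIL was nearest to PTPN12, a tyrosine phosphatase gene (0.039), and to LRRC25 (0.043). TGFBR1 was nearest to SMYD3 (0.051) and APBB1IP (0.053), TGFBR2 to SNX24 (0.054), SMAD7 to DENND4C (0.052) and PMEPA1 to ETS1 (0.085). ID1 was nearest to GPR34 (0.188), with CEBPA next (0.213), and ID3 to APPL2 (0.24) and DAB2 (0.25), so by this distance the ID genes had less close neighbours. The distance was not scaled for the size of a gene's change, and ID1 and ID3 fell most of the 10 genes. The added 0.5 CPM weighs most on ID1, whose level with LPS is low. Among the 10 genes the closest pairs were TGFBR2 with SMAD7 (0.116) and TGFBR1 with TGFBR2 (0.117), while ID1 and ID3 were 0.321 apart. Such likeness is a description only, over 12 cultures.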

How the data were processed

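Single-cell RNA was measured in 12 cultures, 3 for each of 4 conditions, pooled in 2 libraries of 10x 3' v3.1 chemistry. The deposited matrices hold raw UMI counts of genes and of hashtag antibodies per barcode, not normalized. Per the file headers they were written by Cell Ranger 6.0.1. The submitters' processing notes list Cell Ranger 3.0.2, Seurat 4.1.1 and hg38. Which annotation the authors counted with is not stated.

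Barcodes were assigned to cultures from hashtag counts (a threshold per hashtag and library at percentile 99 of its background, modelled as negative binomial, with background taken from k-means clustering into 13 clusters). Of 28943 barcodes 21757 carried 1 hashtag, and 6707 (23.17%) with several were left out as doublets; doublets within a culture remain, and no other doublet caller was run. The libraries shared 91 barcodes, 10 among cells kept. Cells under 1000 genes or over 10% mitochondrial UMIs were dropped; 20.32 to 39.08% of a culture's cells exceeded that limit. UMIs were summed per culture over both libraries, 900761329 in all before filters, then tested in R 4.3.3 by edgeR 4.0.16 (TMM, filterByExpr, all 12 cultures in 1 fit, without a block). Standard errors are the log2 fold change over the square root of F. Cells were thinned to 10000 UMIs for shares. Scripts were tested on simulated data.

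Cultures that carry the same number moved in common. Across 5281 genes, their departures from the mean of their condition correlated at 0.447 to 0.748, against −0.567 to 0.17 between different numbers. This pairing rests on the data, since no label explains the numbers, and blocked values are given where they change a call. The 10 genes and the gene lists were chosen with earlier results of these data known; other genes are named by rule, up to 4 per list and contrast with the smallest p among those past the threshold, and those outside it (SMAD2, SMAD4, TGFBR3, ID4, OLFML3 and genes that did not pass) were added after their values were seen. In the lists, 1 gene is counted but not reported here. Alternatives were DESeq2 1.42.0, its size factors, no filter, the block, fewer cultures, each library, other cell filters and other depths; leaving out dividing cells and leaving out a culture under the block were added after seeing the data. Promoter windows are from RefSeq (GRCh38.p14) and gene positions from GENCODE v29 (GRCh38), in which all 10 gene IDs matched. Intervals cover counting and culture spread only.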

Additional observations from a re-analysis of the deposited data

How the results depend on the processing

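The 9 calls for LPS against Ctrl and the 9 for SemaLPS against Sema kept their direction under each alternative run. Calls changed for TGFB1, SMAD3 and TGFBI as given with those genes; TGFB1 also passed without Ctrl-1 (adjusted p = 0.0327) for LPS against Ctrl, from library 1 alone (0.0317), and without Sema-1 (0.0378) for SemaLPS against Sema. Leaving out 1 culture gave 9 to 10 members called for LPS against Ctrl, 8 to 9 for SemaLPS against Sema and 0 for the others; with the replicate block as well, 9 to 10, 9 to 10, and 0 to 1 for SemaLPS against LPS. The replicate block called 1 member (PMEPA1) and 2 further pathway genes as higher for SemaLPS against LPS (1 to 2 with a culture left out, and 0 to 2 lower), and 5 higher and 2 lower for Sema against Ctrl (0 to 5 and 1 to 3). Among the 10 genes it changed no other call than those of TGFB1 and PMEPA1. Over all genes it called 517 for Sema against Ctrl and 315 for SemaLPS against LPS, where the fit without it called 2 each.

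Signs turned only for members that were not called in that comparison, and the cause was not tested. For Sema against Ctrl the log2 differences were −0.0124 for TGFBR2 and 0.0405 for PMEPA1 in library 2 alone, and for ID3 −0.0152 in library 1 alone and −0.0056 without dividing cells. For SemaLPS against LPS, TGFBR1 gave −0.0096 where the ratio between a cell's top hashtags assigned it, −0.0153 in library 1 alone and −0.009 without dividing cells. SMAD3 gave 0.0084 with no filter, 0.063 in library 2 alone and 0.0444 without dividing cells. SMAD7 gave 0.0012 in library 1 alone. SKIL gave 0.0035 with no filter, 0.0203 in library 1 alone and 0.013 without dividing cells. TGFBI gave −0.0037 with up to 20% mitochondrial UMIs, −0.0257 in library 1 alone and −0.0334 without dividing cells, and ID1 gave 0.0559 without dividing cells. With 1 culture left out, the ranges that crossed 0 for Sema against Ctrl were −0.0046 to 0.0703 for TGFBR1, −0.0047 to 0.0691 for TGFBR2 and −0.0913 to 0.0154 for PMEPA1. For SemaLPS against LPS they were −0.0424 to 0.0705 for TGFBR1, −0.0002 to 0.1722 for TGFBR2, −0.0808 to 0.08 for SMAD3, −0.09 to 0.0271 for SMAD7, −0.0303 to 0.0393 for SKIL, −0.0714 to 0.0849 for TGFBI and −0.3063 to 0.3136 for ID3, whose highest value came without LPS-3. With the replicate block and 1 culture left out, values turned for Sema against Ctrl in PMEPA1 (0.0054 without Ctrl-1, 0.0153 without Sema-3) and ID3 (−0.0313 without Sema-1, −0.112 without Ctrl-3). For SemaLPS against LPS they turned in TGFBR1 (−0.0072 without LPS-3), in SMAD3 (0.0176, 0.0028, 0.0222 and 0.1105 without LPS-1, SemaLPS-1, SemaLPS-2 and LPS-3), in SKIL (0.0046, 0.0252 and 0.0397 without LPS-1, LPS-3 and SemaLPS-3), in TGFBI (−0.022 and −0.008 without SemaLPS-1 and LPS-2) and in ID3 (0.303 without LPS-3).

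For shares of cells, 9 to 10 members did not overlap with LPS against without it at each depth (not counted over all genes). For Sema against Ctrl 1 did not overlap at 5000 UMIs per cell. For SemaLPS against LPS 0 did not overlap at 5000 UMIs or without thinning, against 2 (TGFB1 and SMAD3) at 10000, and the SMAD3 difference at 5000 UMIs was 0.14 percentage points. ID1 with LPS rests on 24 to 43 UMIs per culture and SMAD3 on 75 to 120, so small differences between SemaLPS and LPS in them were not detectable at this depth.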
